A study of Mus musculus with 8 samples.

Results

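Laminins, nidogens and collagen IV are the network-forming proteins of the basement membrane, and 10 of their genes were followed here in cells of the embryonic mouse vertebral column: the laminin alpha chain genes Lama1, Lama2, Lama4 and Lama5, the laminin beta and gamma chain genes Lamb1 and Lamc1, the nidogen genes Nid1 and Nid2, and the collagen IV chain genes Col4a1 and Col4a2. They were 10 of 19074 genes named on the array, and were chosen by name, after Lama2 had been seen among the largest differences between the genotypes. Every probe annotated to them was taken, 18 of 45281 probes in all.

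The arrays compared EGFP-positive cells sorted by flow cytometry from dissociated vertebral columns at E12.5, on a C57BL/6J;129 background. All groups carried EGFP at the Bapx1 locus, now named Nkx3-2, a homeobox gene active in the sclerotome and in cartilage precursors. The wildtype group (4 arrays) carried the tm2.Tlu allele, in which the coding sequence is intact and EGFP is translated separately from an internal ribosome entry site behind it, and which the study writes as heterozygous. The null group (4 arrays) was homozygous for tm4.Tlu, in which EGFP was inserted at the start codon with a loss of coding sequence. Copies of the reporter and the mode of EGFP translation therefore differed with genotype, and cannot be told apart from it. The methods call the replicates biological. The sources used here do not say whether embryos were pooled.

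Basement membranes are thin sheets of matrix beneath epithelia and endothelia and around muscle fibres, Schwann cells, the notochord and the neural tube. A laminin is a trimer of an alpha, a beta and a gamma chain that assembles into a first network on the cell surface through integrins and dystroglycan. Collagen IV chains assemble into a second network, and nidogens bind both. Cartilage cells are embedded in a different matrix, rich in collagen II and aggrecan.

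Signals were compared as log2 intensity after background correction and quantile normalization, and a level is meaningful only between arrays for the same probe. Detected means a detection p under 0.05 on an array, and 19965 probes detected on at least 4 of 8 arrays were tested with limma. The share of probes detected was 41.0% to 45.8% per array. Null replicate 1 and wildtype replicate 2 stood apart: their mean correlations with the other arrays of their own group were 0.972 and 0.969, against 0.984 to 0.985 for the other null and 0.979 to 0.981 for the other wildtype arrays. Null replicate 1 correlated slightly better with the wildtype arrays, at 0.976. For the targeted gene, Nkx3-2, a probe (ILMN_2687592) read 4.42, 4.46, 4.48 and 4.84 on wildtype replicates 1 to 4, detected on 0 of them, and 5.45, 7.49, 6.59 and 7.55 on null replicates 1 to 4. That is at least 3.67-fold higher in the arrays labelled null (limma, adjusted p = 0.0435). The place of this probe relative to the deleted part of the gene is not given, so it does not check the labels, and wildtype and null below mean the arrays so labelled.

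Of the 18 member probes, 15 could be matched to the intensity table, and 12 of these, with at least 1 for each of the 10 genes, passed the detection filter. The 3 probes with no match were 2 further Lama2 probes and 1 Lama4 probe. No address of the intensity table without a match was detected on more than 1 of the 8 arrays. The 3 matched probes that did not pass were all annotated to Lama4.

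The null minus wildtype difference was above 0 for 11 of the 12 probes that passed, for Lama5 it was below 0, and under scaling by the median absolute deviation 5 of the 11, the probes of Lama1, Lamb1, Col4a1, Col4a2 and 1 of Lamc1, changed sign. Over all tested probes 44.9% of differences were above 0. The median difference was 0.53 on the log2 scale for the 12 probes and -0.04 for all tested probes. All null arrays lay above all wildtype arrays for 6 of the 12 probes, against 4.76% of all tested probes, and below for 1 probe, against 6.05%, and the groups overlapped for 5. Called means an adjusted p under 0.05 over all tested probes (limma). The Lama2 and the Nid2 probe were called, both higher in null, and 0.781% of all tested probes were called. The genes were chosen from this contrast, and the counts are given as a description.

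**Figure D1:**
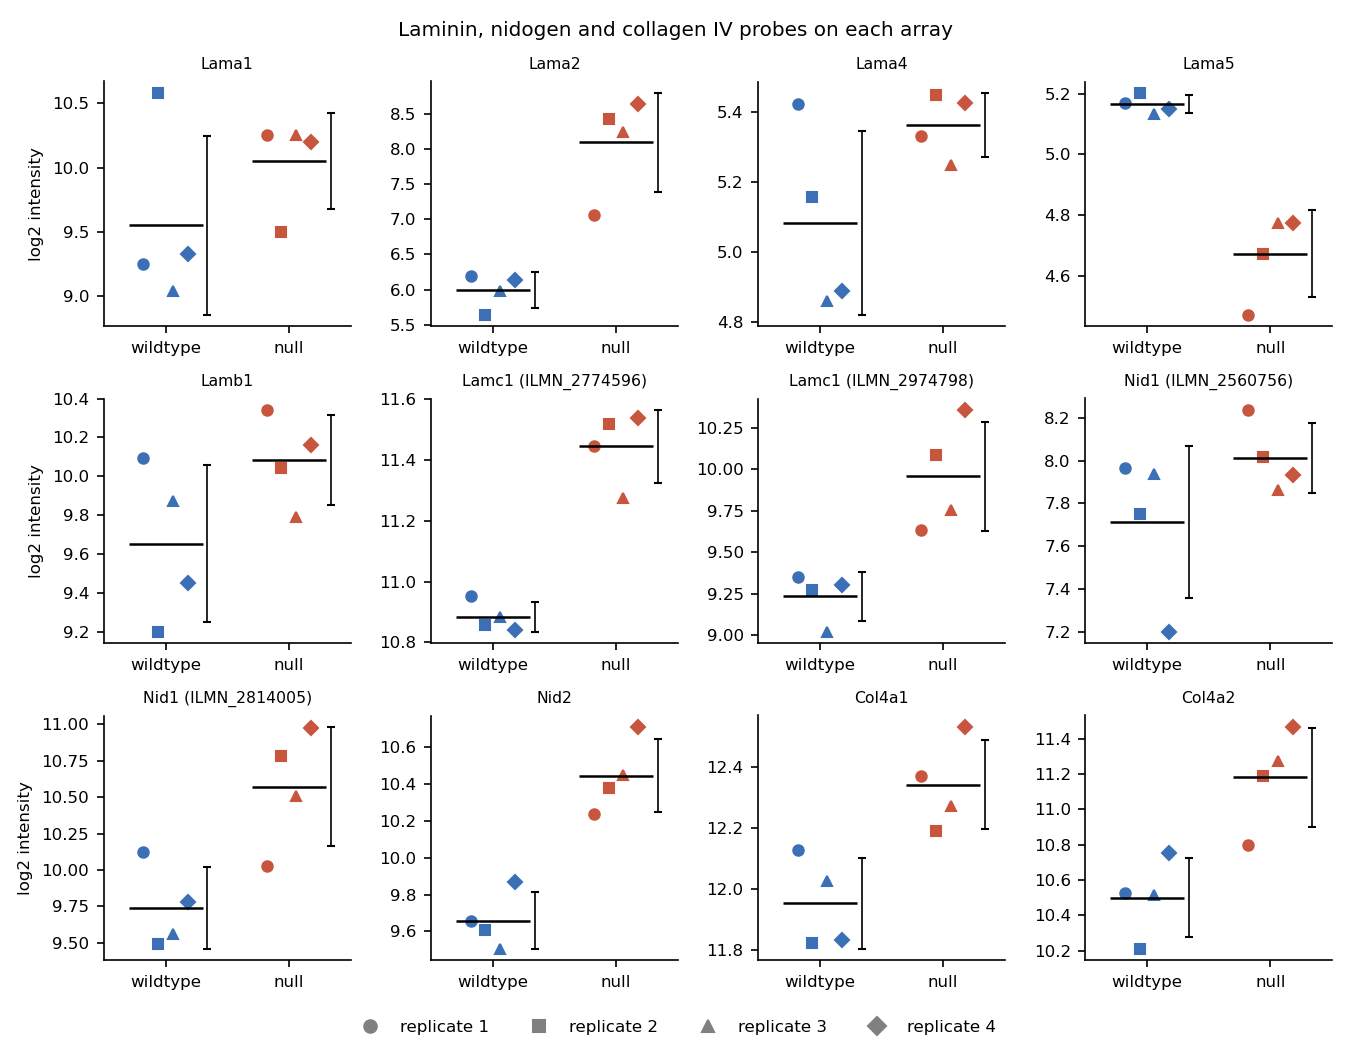
Normalized log2 intensity (y axis, own scale in each panel) of the 12 member probes that passed the filter on the 4 wildtype (blue) and 4 null (red) arrays; marker shape gives the replicate, the line the mean and the bar the SD. The null arrays lie above the wildtype arrays for Lama2, both Lamc1 probes, Nid2, Col4a1 and Col4a2, and below them for Lama5.

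Lama2 encodes the alpha chain of the laminins of muscle fibres and Schwann cells. Its probe (ILMN_2769479) read 6.20, 5.63, 5.99 and 6.14 on wildtype replicates 1 to 4 and 7.07, 8.43, 8.24 and 8.65 on null replicates 1 to 4. Every null array lay above every wildtype array, and null replicate 1 was the nearest to them. The means were 5.99 ± 0.25 (SD, n = 4) in wildtype and 8.10 ± 0.71 (SD, n = 4) in null, a difference of 2.10 or 4.30-fold, ranked 8 of 19965 from the highest. On the linear scale of the deposited table of background-subtracted intensity, the same probe read 61.3, 24.9, 41.5 and 33.5 in wildtype and 86.2, 434.8, 351.1 and 523.9 in null. Null replicates 2, 3 and 4 thus stood well above the rest on that scale too, while null replicate 1 was close to wildtype replicate 1. With 1 array left out at a time the difference ranged from 1.92 to 2.45. The call was lost without wildtype replicate 3 or 4 or without null replicate 2, 3 or 4.

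Lama1 encodes the alpha chain of the first laminins of the embryo. Its probe (ILMN_2973288) read 9.25, 10.58, 9.04 and 9.33 in wildtype and 10.25, 9.50, 10.26 and 10.20 in null. The highest of the 8 values was wildtype replicate 2, so the groups overlapped. The difference between the means, 9.55 ± 0.70 and 10.05 ± 0.37 (SD, n = 4 each), was 0.50, less than the SD of the wildtype arrays. Without wildtype replicate 2 it was 0.85, the highest value with 1 array left out, and the lowest was 0.33.

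Lama4 encodes an alpha chain typical of blood vessel walls. Its brightest probe (ILMN_1251062) read 5.42, 5.16, 4.86 and 4.89 in wildtype, where 3 of 4 arrays detected it, and 5.33, 5.45, 5.25 and 5.43 in null, where all 4 did. The groups overlapped through wildtype replicate 1, and the difference was 0.28. A further Lama4 probe (ILMN_2816565) was detected on 0 of 4 wildtype and 3 of 4 null arrays, at 4.65 ± 0.19 and 4.95 ± 0.16 (SD, n = 4), which sets only a bound of at least 1.04-fold higher in null. The remaining pair of matched Lama4 probes was not detected on any array.

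Lama5, whose product is widespread in epithelial and endothelial basement membranes, ran the other way. Its probe (ILMN_2640248) read 5.17, 5.20, 5.13 and 5.15 in wildtype, just above the lowest detected signal, and 4.47, 4.67, 4.77 and 4.77 in null. It was detected on 4 of 4 wildtype and 0 of 4 null arrays, with no overlap. The null values are therefore not well above background, and the difference is a bound, at least 1.24-fold lower in null, with measured means of 5.16 ± 0.03 and 4.67 ± 0.14 (SD, n = 4). The probe passed the filter through the group in which it was high.

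Lamb1 and Lamc1 encode the beta and gamma chain shared by most laminins of the embryo. Lamb1 (ILMN_1253659) read 10.09, 9.20, 9.87 and 9.45 in wildtype and 10.34, 10.04, 9.79 and 10.16 in null. The groups overlapped, and the difference of 0.43 (9.65 ± 0.40 and 10.08 ± 0.23, SD, n = 4 each) was about the size of the wildtype SD. Of the Lamc1 probes, ILMN_2774596 read 10.95, 10.86, 10.88 and 10.84 in wildtype and 11.45, 11.52, 11.27 and 11.54 in null. The other, ILMN_2974798, read 9.35, 9.27, 9.02 and 9.30 in wildtype and 9.63, 10.09, 9.75 and 10.36 in null. Both separated the genotypes without overlap, with differences of 0.56 and 0.72, or 1.48-fold and 1.65-fold. These exceeded the SDs of both groups, which were 0.05 and 0.12 for the first probe and 0.15 and 0.33 for the second.

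Nidogens bind the gamma chain of laminin and link it to collagen IV. Nid2 (ILMN_2961933) read 9.66, 9.61, 9.50 and 9.87 in wildtype and 10.24, 10.38, 10.45 and 10.71 in null. The groups did not overlap, and the means of 9.66 ± 0.15 and 10.45 ± 0.20 (SD, n = 4 each) differed by 0.79, or 1.73-fold. Its difference ranked 618 of 19965, and ranged from 0.70 to 0.86 with 1 array left out. The call was lost without any 1 of the wildtype arrays or of null replicates 2, 3 and 4.

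The Nid1 probes differed from each other. ILMN_2814005 read 10.12, 9.49, 9.56 and 9.78 in wildtype and 10.03, 10.78, 10.50 and 10.98 in null, so that null replicates 2, 3 and 4 lay above all wildtype arrays and null replicate 1 lay below wildtype replicate 1. ILMN_2560756 read 7.96, 7.75, 7.94 and 7.20 in wildtype and 8.24, 8.02, 7.86 and 7.93 in null, with overlap. Their differences were 0.83 and 0.30. Null replicate 1 was the lowest null array for the first probe and the highest for the second.

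Col4a1 and Col4a2 encode the chains of the most widespread collagen IV trimer and lie head to head. In the RefSeq promoter table (GRCm38.p6), which holds 6 of the 10 genes, their annotated first transcribed bases lie 21 bases apart on opposite strands of chromosome 8, and the windows from 250 bases before to 50 after each start share 78 bases. Each start lies within the transcribed stretch of the other gene, so the first bases of the annotated transcripts overlap. Both genes were higher on every null array under quantile normalization, though lower on average under scaling by the median absolute deviation. A CCAAT box of each is shown, with the match in capitals. For Col4a1 it lies at base -145 from the first transcribed base, on the opposite strand (read as ATTGG), within chr8:11312954-11312983 on the minus strand. For Col4a2 it lies at base -32, on the same strand, within chr8:11312761-11312790 on the plus strand. The Lama2 window holds no CCAAT match, and its GC box (GGGCGG) at base 18, within chr10:27616908-27616937 on the minus strand, is shown instead. CCAAT matches also lie in the Lamb1 and Nid1 windows, and each of the 6 windows holds a GC box. The Col4a1 and Col4a2 windows share a GC box, at base 10 for Col4a1 and base 8 for Col4a2.
Col4a1: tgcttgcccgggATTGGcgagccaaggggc
Col4a2: ccgaggagctccCCAATttgttggcgctgc
Lama2: tcacccacccttGGGCGGtggcagggcaga
Motifs were searched on both strands, and such matches are common: of 32851 promoter windows of this length, 37.4% hold the letters of this CCAAT box and 35.7% those of the GC box. A TATA box (TATAAA), held by 13.6%, and both forms of the core of the NKX3-2 recognition sequence, TAAGTG held by 9.20% and TGAGTG held by 16.4%, were not found in the windows of these 6 genes.

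Col4a1 (ILMN_2621643) read 12.13, 11.82, 12.03 and 11.83 in wildtype and 12.37, 12.19, 12.27 and 12.53 in null. The gap between the groups was narrow, with wildtype replicate 1 just below null replicate 2, and the means of 11.95 ± 0.15 and 12.34 ± 0.15 (SD, n = 4 each) differed by 0.39, or 1.31-fold. Col4a2 (ILMN_2822579) read 10.53, 10.21, 10.51 and 10.75 in wildtype and 10.80, 11.19, 11.27 and 11.47 in null. Here null replicate 1 lay just above wildtype replicate 4, and the means of 10.50 ± 0.22 and 11.18 ± 0.28 (SD, n = 4 each) differed by 0.68, or 1.60-fold.

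Seen by array, null replicate 1 was the lowest null array for 6 of the 12 probes and the highest for 2, and null replicate 4 was the lowest for 0 and the highest for 7. Wildtype replicate 1 was the highest wildtype array for 8 probes. Without null replicate 1, 7 member probes of 6 genes were called (Lama2, both Lamc1 probes, 1 of Nid1, Nid2 and Col4a2 higher, and Lama5 lower), but in that fit 16% of all tested probes were called. Without both arrays that stood apart, a choice made after seeing the data, these and Lama1, 8 member probes in all, were called, as were 20.3% of all tested probes. The median difference of the 12 probes with 1 array left out ranged from 0.49 to 0.61.

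**Figure D2:**
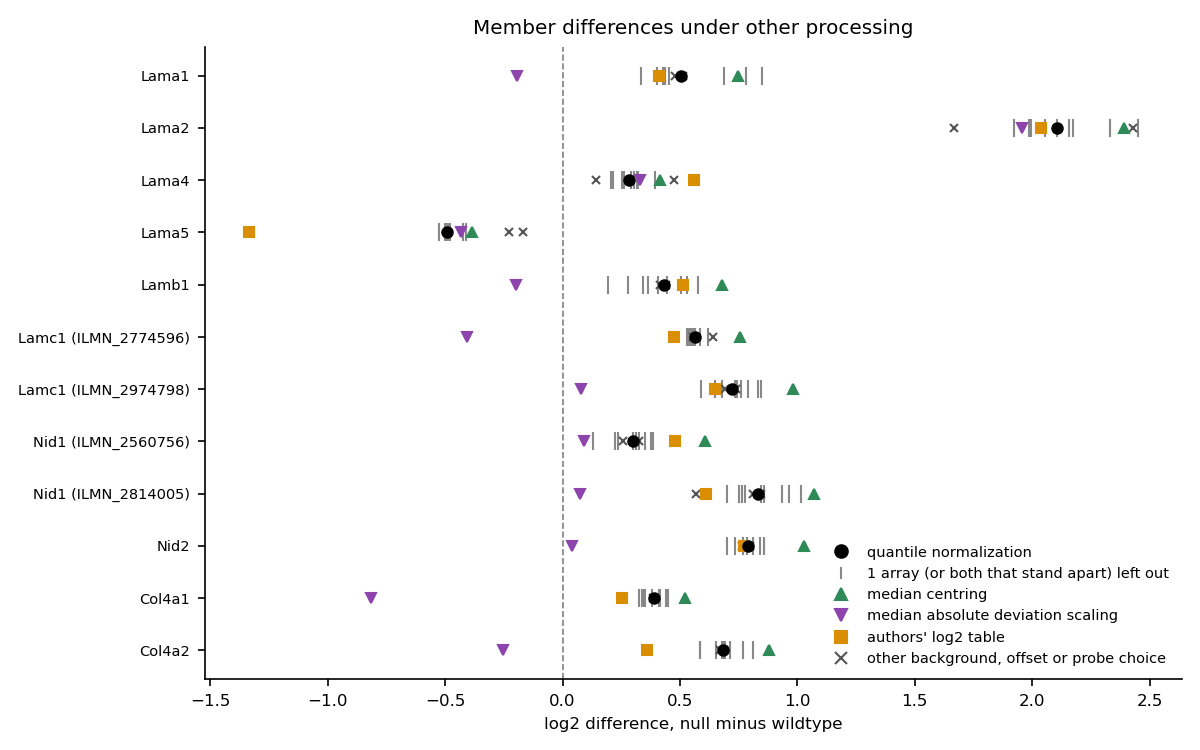
Log2 difference, null minus wildtype (x axis), of each of the 12 member probes under the processing used in the text (black) and its alternatives. Lama2 stays between 1.67 and 2.45 throughout, whereas scaling by the median absolute deviation (purple) moves 5 probes from above to below 0.

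Another scaling changed the sign of some of these differences, which leaving out any 1 array did not. Scaling each array by its median absolute deviation, the spread measure named in the methods of the study, moved the median difference of all tested probes from -0.04 to -0.26, and median centring moved it to 0.19. Under the former the differences were -0.82 for Col4a1, -0.41 for Lamc1 (ILMN_2774596), -0.26 for Col4a2, -0.20 for Lamb1 and -0.19 for Lama1, so 6 of the 12 member probes were higher and 6 lower in null. Relative to the shift of all probes, Col4a1, Lamc1 (ILMN_2774596) and Lama5 lay below it, Col4a2 lay at it, and the other 8 probes lay above it. The Lama2 difference was 1.96 under this scaling, and that of Nid2 was 0.04. Median centring left all 11 signs and raised the median of the 12 probes to 0.75. The scaling was run here on log2 values after the background correction used in the text, so it may differ from that of the study. In the log2 values deposited by the authors, 11 of the 12 member probes were higher in null, with a median difference of 0.50. Those values hold null replicates 1 to 3 and a null array of their own.

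The second deposited table, of log2 values, holds 1 null array that matched no array of the intensity table, and the genes were chosen without it. On a common scale (log2 intensity centred on the array median), Lama2 read 2.82, 1.92, 2.49 and 2.58 in wildtype, 3.60, 5.43, 5.30 and 5.74 in null, and 3.61 on this array. It was thus above all wildtype arrays, next to null replicate 1 and far below the other null arrays. Nid2 read 6.54, 6.71, 6.37 and 6.77 in wildtype, 6.91, 7.39, 7.53 and 7.78 in null, and 7.66 on this array. Of the 12 member probes, 8 lay above all 4 wildtype arrays on it, 2 within their range (Lama1 and Lama4) and 2 below them (Lama5 and Col4a2), against 19.8% of all tested probes above and 22.4% below. Lama5 read 0.66 against 1.15 to 1.31 in wildtype, and Col4a2 7.34 against 7.35 to 7.70, a margin far smaller than the wildtype spread. With 1 array there is no test. Across 19965 probes, this array correlated with wildtype replicates 1 to 4 at 0.965, 0.921, 0.965 and 0.959 and with null replicates 1 to 4 at 0.968, 0.948, 0.958 and 0.954, with means of 0.952 and 0.957 and overlapping ranges. Genes are not independent replicates in these correlations.

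**Figure D3:**
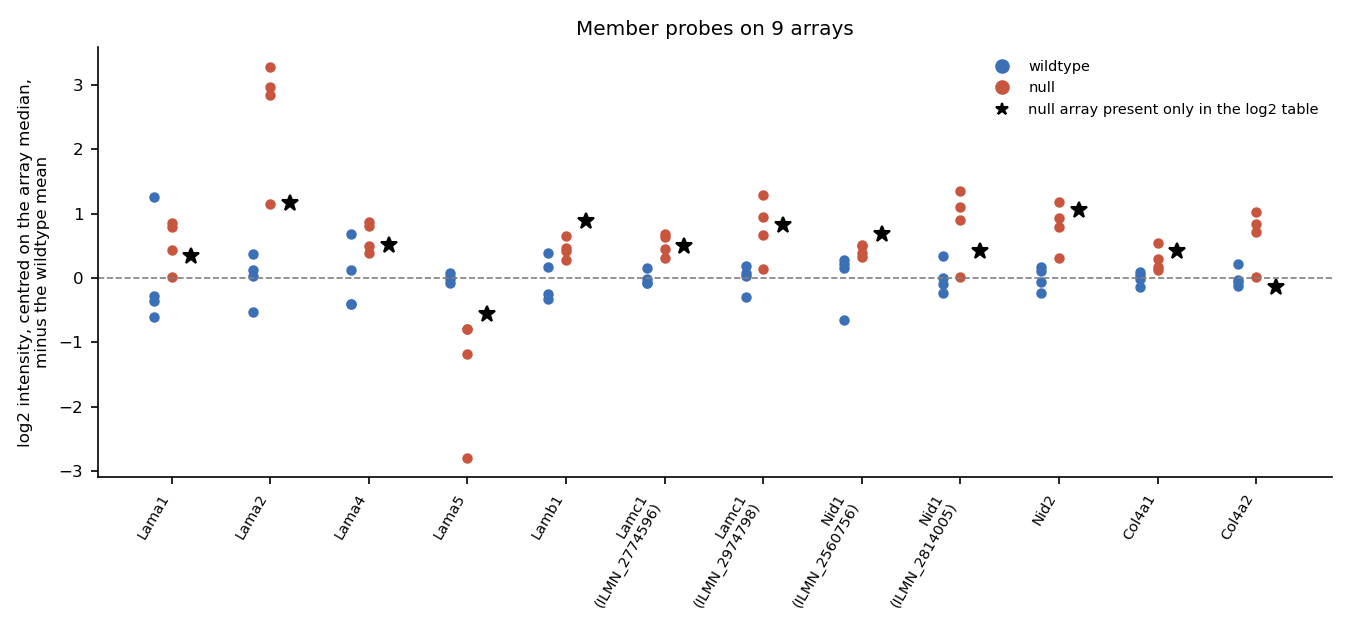
Centred log2 intensity minus the wildtype mean (y axis) of the 12 member probes on the 4 wildtype arrays (blue), the 4 null arrays of the intensity table (red) and the null array found only in the log2 table (star). The star lies above all wildtype points for 8 probes, and for Lama2 it sits beside the lowest null array, 1.16 above the wildtype mean.

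The other genes of the basement membrane and its receptors were taken from lists of 42 genes, of which 39 had a matched probe and 27 a tested one. With the brightest probe of each gene, 0 of 27 were called higher and 0 lower (limma), 5 had an unadjusted p under 0.05, and the 2-group test that the methods name also called 0, with 4 at an unadjusted p under 0.05. Of these genes 20 had a difference above 0 (25 with median centring, 9 with scaling by the median absolute deviation), their median was 0.11, and 2 were higher on every null than on every wildtype array. Over all tested probes 44.9% of differences were above 0, 4.76% of probes were higher on every null array, and 0.781% were called. Without null replicate 1, 4 of the 27 genes (Col4a4, Col4a5, Itgb1 and Lamb2) were called higher, in the fit that called 16% of all probes.

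Among the laminin and collagen IV chains, all 5 tested genes had higher means in null, but Lamb2 and Col4a5 had lower ones under scaling by the median absolute deviation. Lamc3, which encodes a further gamma chain, measured 7.63 ± 0.44 in wildtype and 8.50 ± 0.54 in null (SD, n = 4 each, limma adjusted p = 0.145), and Lamb2, a beta chain of muscle and nerve laminins, 8.80 ± 0.21 and 9.24 ± 0.38 (adjusted p = 0.228). Both overlapped between genotypes. Col4a5, of the collagen IV trimer known from Alport syndrome, measured 9.92 ± 0.08 and 10.59 ± 0.31 (difference 0.67, adjusted p = 0.0803), and its other probe differed by 0.79 (adjusted p = 0.0638). Col4a4, its partner chain, measured 5.23 ± 0.11 and 5.68 ± 0.15 (adjusted p = 0.0964, ILMN_1228314). All null arrays lay above all wildtype arrays for each of these 3 probes, and none passed the threshold. The other tested Col4a4 probe (ILMN_2983387) overlapped, with a difference of -0.05 (adjusted p = 0.864).

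The remaining groups had medians of 0.13 or less under quantile normalization, and under scaling by the median absolute deviation the proteoglycans and the binding partners had medians of -0.82 and -0.86. Of 8 receptor genes, 6 had a difference above 0 with a median of 0.08, or 4 under scaling by the median absolute deviation. Itgb1, the beta subunit of most laminin-binding integrins, measured 6.64 ± 0.18 in wildtype and 7.21 ± 0.29 in null (SD, n = 4 each, limma adjusted p = 0.114), and Itgb4, the partner of the alpha 6 integrin in hemidesmosomes, 5.93 ± 0.23 and 6.41 ± 0.47 (adjusted p = 0.248). The other tested Itgb1 probe (ILMN_2609304), detected on 2 wildtype and 3 null arrays, differed by -0.03 (adjusted p = 0.959). Of 4 proteoglycan and multiplexin genes, 3 had a difference above 0, and 0 had under scaling by the median absolute deviation. Hspg2 (perlecan) differed by 0.28 (adjusted p = 0.352) and Col18a1 by 0.19 (adjusted p = 0.556). Of 7 binding partners and assembly factors, 3 had a difference above 0, or 7 with median centring and 0 with scaling by the median absolute deviation. Pxdn, which crosslinks collagen IV, differed by -0.26 with its brightest probe (adjusted p = 0.308) and by 0.58 with another, ILMN_2424565 (adjusted p = 0.222). Sparc, a collagen-binding protein, differed by 0.24 with its brightest probe (adjusted p = 0.360). A further Sparc probe (ILMN_1243212) differed by -0.96 (adjusted p = 0.521) and varied within both groups, from 8.99 to 12.20 in wildtype. The remaining Sparc probe (ILMN_3059326) differed by 0.12 (adjusted p = 0.752). The 3 tested genes of the dystrophin complex, which anchors laminin to muscle fibres, had a median of 0.01, with Sgcb at 0.14 (adjusted p = 0.643) and Utrn at 0.01 (adjusted p = 0.965).

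**Figure D4:**
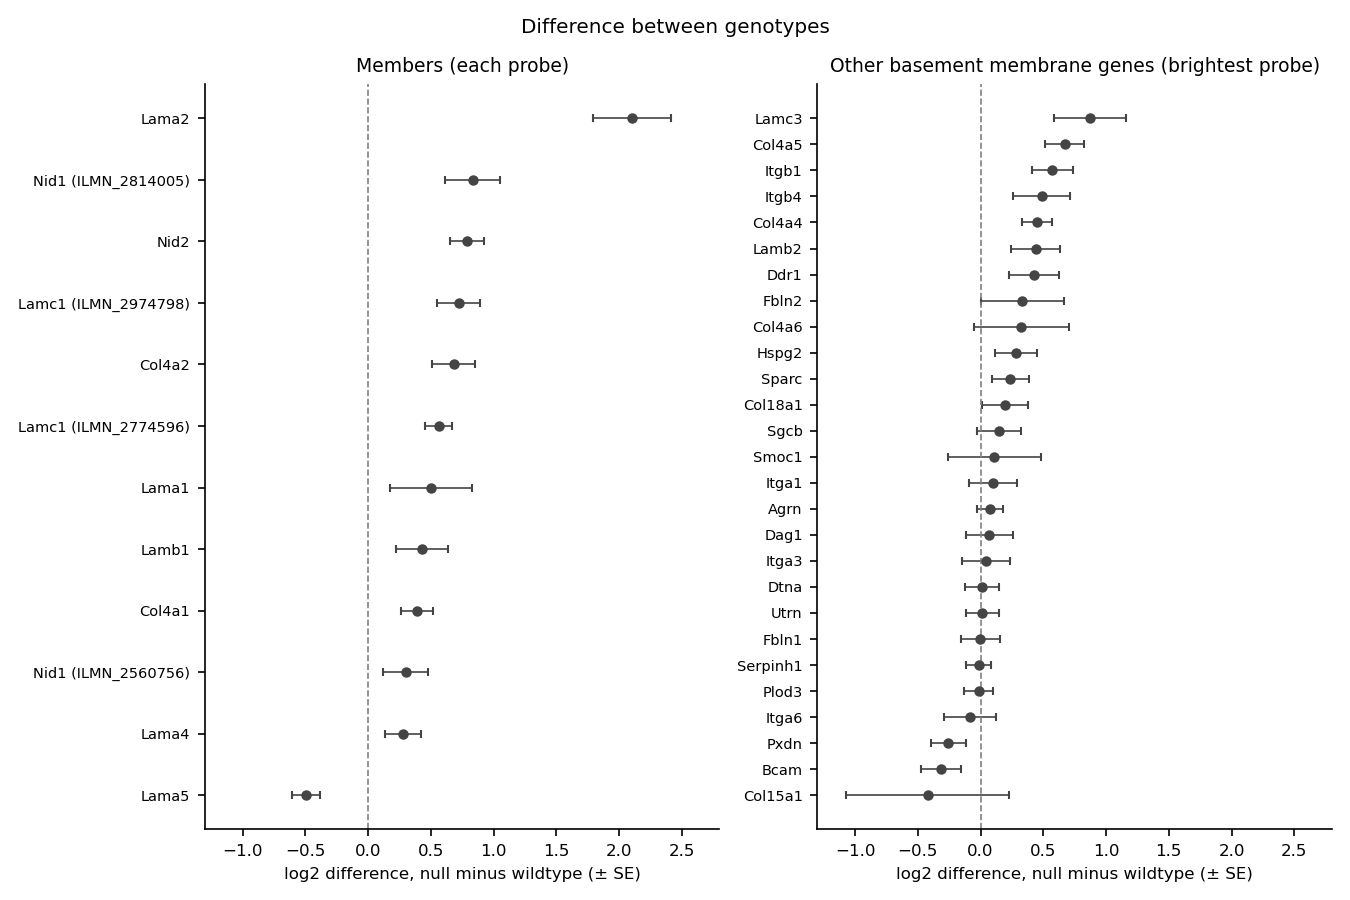
Log2 difference, null minus wildtype, with its standard error from the fit (x axis), of the 12 member probes (left) and of the brightest probe of the 27 other basement membrane genes tested (right), each ordered by size. Lama2, at 2.10, lies farther from 0 than any other probe shown, and Lama5 is the one member below 0.

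Basement membrane genes are expressed in several cell types, and in sorted cells a change in the share of such cells and a change of RNA per cell cannot be told apart. Marker lists of other cell types were therefore summed on each array (linear normalized intensity, brightest probe of each gene), and genes are counted by that probe unless stated. The endothelium list summed to 803 to 1377 in wildtype and 1502 to 2374 in null, with 10 of 10 tested genes higher on average (9 of 10 under scaling by the median absolute deviation) and 1, Tek, called. Of its defining markers, Pecam1 was detected on 1 of 4 wildtype and 4 of 4 null arrays by its brightest probe and on 3 and 3 by the other, Cdh5 on 3 and 4, and Kdr on 1 and 0. The brightest Cdh5 probe measured 6.50 ± 1.34 in wildtype and 8.68 ± 0.98 in null (SD, n = 4). Its difference of 2.18 was without overlap but not called (limma adjusted p = 0.125). The other Cdh5 probe differed by 1.42, with overlap. The meninges list summed to 13011 to 20104 and 21592 to 29062, with 8 of 8 tested genes higher on average (3 of 8 under scaling by the median absolute deviation) and 1, Slc22a6, called, while Foxc1 was the same within its spread at 10.86 ± 0.19 and 10.92 ± 0.32 (SD, n = 4). Slc6a13 was higher on every null array but not called, at 8.21 ± 1.25 and 9.92 ± 0.46 (SD, n = 4, limma adjusted p = 0.130). The neural crest and Schwann cell list summed to 1201 to 1348 and 1751 to 2058, with Ngfr called higher, but Sox10 lower on average at 8.02 ± 0.19 and 7.38 ± 0.34 (SD, n = 4). Ngfr, at 9.90 ± 0.06 and 10.72 ± 0.12 on the log2 scale (SD, n = 4), made up most of these sums.

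The pericyte and smooth muscle list summed to 3063 to 3905 in wildtype and 3900 to 5886 in null with 0 of 8 tested genes called. Of these genes 5 were higher on average (3 under scaling by the median absolute deviation). The defining pericyte markers differed in direction. Pdgfrb was higher on every null than on every wildtype array, at 8.95 ± 0.18 against 8.39 ± 0.15 (SD, n = 4). Cspg4 was lower on every null than on every wildtype array, at 5.65 ± 0.25 against 6.12 ± 0.13 (SD, n = 4). Rgs5 did not pass the filter, at 4.83 ± 0.26 in null and 4.83 ± 0.14 in wildtype (SD, n = 4). The neuron list summed to 775 to 1462 and 1654 to 2849, with 6 of 7 tested genes higher on average and 0 called, although among all 12 tested neuron probes 1 of Elavl3 and 1 of Dcx were called higher. Of the other defining neuron markers, Tubb3 was detected on 0 wildtype arrays and 1 null array. Elavl4 overlapped, at 6.66 ± 0.53 and 7.55 ± 0.58 (SD, n = 4). The skeletal muscle list overlapped, at 991 to 2409 in wildtype and 1891 to 5564 in null, with 10 of 11 tested genes higher on average and 0 called. Myod1 was detected on 1 of 4 wildtype and 3 of 4 null arrays and Myog on 3 and 4. The highest skeletal muscle sum, 5564, was on null replicate 1. The neural progenitor list summed to 860 to 1318 in wildtype and 470 to 651 in null. Of its 3 tested genes Nkx6-1 and Nkx2-2 were called lower. The brightest Sox2 probe was detected on 0 wildtype and 4 null arrays, with a bound of at least 1.48-fold higher in null. The other Sox2 probe was detected on 2 wildtype arrays and 1 null array, with a difference of -0.03. Sox1, Pax6 and Olig2 were not detected on any array. The highest sum of this list was on wildtype replicate 2, where Nkx6-1, at 10.13 on the log2 scale, made up most of it. Blood sums overlapped at 760 to 6415 and 1185 to 1777. Epithelium sums overlapped at 219 to 300 and 185 to 358, as did notochord sums at 168 to 185 and 146 to 173, with Shh and Noto not detected on any array. For the labelled tissue itself, the cartilage markers Col2a1, Acan and Sox9 were detected on all 4 wildtype arrays. The cartilage list summed to 31046 to 37718 in wildtype and 17168 to 21430 in null, with 5 of 10 genes called lower, among them these 3, and all 10 lower under each of the 3 scalings. The sclerotome list summed to 10507 to 11294 and 7696 to 9144, with Pax1 and Uncx called lower and Nkx3-2 higher. The part of any of these cell types in the member values was not tested.

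**Figure D5:**
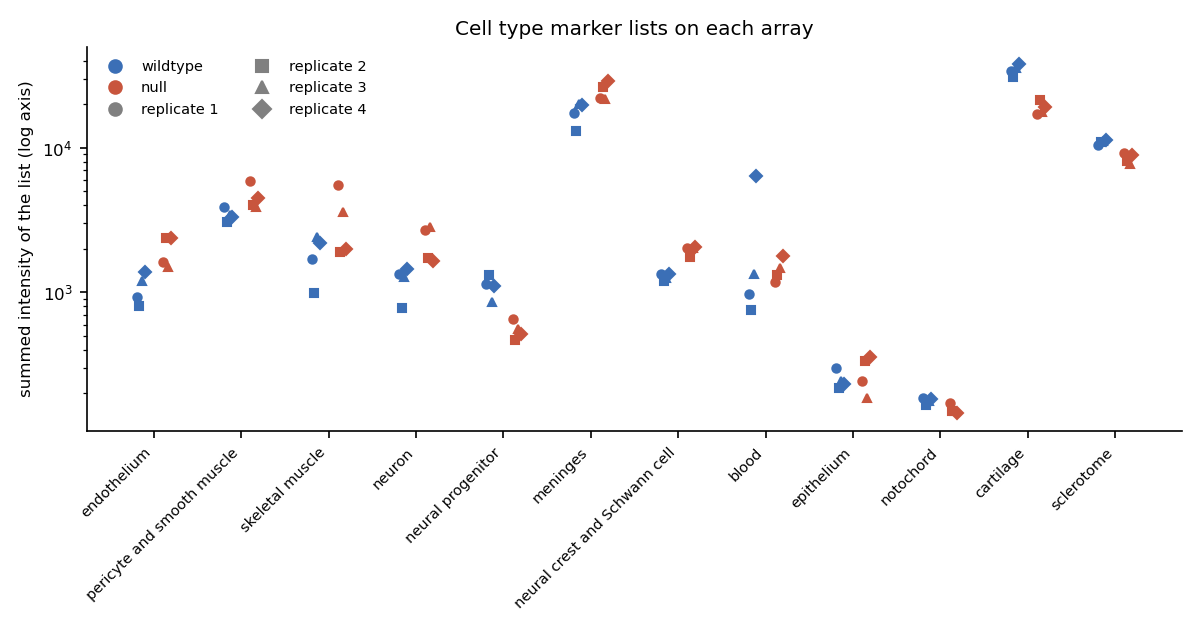
Summed linear intensity of each cell type marker list (y axis, log axis) on the 4 wildtype (blue) and 4 null (red) arrays, with marker shape giving the replicate. The endothelium, meninges, neuron and neural crest sums are higher on every null than on every wildtype array, and the cartilage and sclerotome sums lower.

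The genes with a pattern most like Lama2 over the 8 arrays, by Pearson correlation with its probe among 16963 probes of 1 named gene, were Mief2 (0.992), Fut8 (0.991), App (0.989), Tfpi (0.989) and Tgfbr3 (0.988). For Col4a1 they were S100a6 (0.975), Spin1 (0.961), Babam2 (0.953), Plpp7 (0.952) and Jcad (0.947). None of these was among the 10 basement membrane genes. The points are the same 8 arrays in 2 groups, and the values are given as a description.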

How the data were processed

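Labelled cRNA of the sorted cells was hybridized to Illumina mouse BeadChips, 4 wildtype and 4 null arrays. The authors prepared the deposited intensity values in GenomeStudio (no version stated), background-subtracted and not normalized, each with a deposited detection p-value that is near 1 for bright probes and was subtracted from 1 before use. The authors also deposited a log2 table, centred on each array's median with a baseline removed per probe. Which arrays gave that baseline is not stated in the sources read. Its column medians were -0.13, 0.17, 0 and 0.14 for wildtype and 0, 0, -0.16 and -0.086 for null replicates 1 to 4. Direction follows the labels.

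Addresses of the intensity table were matched to probe identifiers by values: 35665 of 45281 probes matched (78.76%; largest deviation 1.9e-06, tolerance 0.001, log2 scale). Log2 columns of null replicates 2, 3 and 4 hold intensity columns of null replicates 1, 2 and 3, and that of null replicate 1 matched none. Replicate numbers here are those of the intensity table, and p-values measure the spread between these arrays. Gene names came from the platform annotation (1 gene for 34885 probes, several for 18, 10378 not listed).

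Normalization and fits ran in R 4.3.3 with limma 3.58.1 (normexp with controls inferred from detection p-values, offset 16, quantile normalization, log2). Probes detected on at least 4 of 8 arrays were compared with lmFit and eBayes, Benjamini-Hochberg adjusted over all 19965. Where a group had no detected array, only a bound on the fold is given: the brighter group's mean over that of the dimmer, in which each array counts at its smallest detected signal unless the probe itself read higher. The procedure was tested on simulated data. Their noise was independent between probes and arrays, so arrays that stand apart, as here, were not covered. Named were all members, Nkx3-2, in each list of other genes those called or else the 2 of smallest p, called markers, part of the defining markers, and the 5 probes most like Lama2 and Col4a1. Not named were the defining markers of blood and epithelium, Pax9, and those without a matched probe. Noto was named as well. Further Col4a4, Col4a5, Itgb1, Pxdn, Sparc, Pecam1, Cdh5, Elavl3, Dcx and Sox2 probes and Olig2 were added after their values were seen. Alternatives were another background floor, offset, scaling, filter, array weights, the replicate block, the methods' 2-group ANOVA, the authors' log2 table and each array left out. Members and lists were chosen with earlier results of these data known. Matching and figures used Python 3.11.15 with matplotlib 3.10.9, pandas 2.3.3 and scipy 1.17.1. The number of arrays limits the precision.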

Additional observations from a re-analysis of the deposited data

Results flagged for a closer look

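The Lama1 probe on null replicate 2 read 9.50 on the log2 scale, against 10.20 to 10.26 on the other null arrays. Its gap to the nearest null array was 0.928 of the range of the group, above Dixon's critical value for groups of 4. This was 1 of 24 groups of 4 arrays examined (12 probes, each genotype), and chance flags about 1 in 20. The raw intensity of the same probe on null replicate 2 was 920.1, within the range of the null arrays, 861.9 to 1529.2.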

How the results depend on the processing

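Of 170 recomputed member differences, 152 moved by less than the replicate SD and 18 by more. Only scaling by the median absolute deviation changed signs, as given in the report. The number of called member probes, 2 in the fit used, was 1 with a floor of 16 without normexp (Lama2), 1 with median centring (Lama2), 1 with no filter (Lamc1), 0 with scaling by the median absolute deviation, 0 with the methods' 2-group ANOVA, 0 in the authors' log2 table, 3 with an offset of 50, 3 among probes detected on all 8 arrays and 8 with array weights. With 1 array left out it ranged from 0 to 7, and without both arrays that stood apart it was 8. Among all tested probes the number called, 156, was 99 with the floor, 1 with scaling by the median absolute deviation, 75 with no filter, 6190 with array weights, 12 with the ANOVA and 16 in the log2 table. It ranged from 21 to 3185 with 1 array left out and was 4048 without both. Of those called, 49.4% were higher in null in the fit used, 79.8% with median centring and 18.8% in the log2 table. Of the other basement membrane genes 0 were called in the fit used, 7 with array weights, 0 to 4 with 1 array left out and 5 without both (Col15a1 lower, the other 4 higher). The cause of these changes was not tested. The ANOVA was run on the quantile-normalized values, not on the scaling of the study. The log2 table lacks null replicate 4 of the intensity table and holds the unmatched null array in its place.

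The targeted gene was not detected in wildtype, so its measured differences depend on the background setting and are no bounds. The measured difference, 2.22, was not called with the floor (2.48), scaling by the median absolute deviation (2.13), an offset of 50 (1.36), no filter (2.22), the ANOVA (2.22) or in the log2 table (4.45), with limma or ANOVA adjusted p of 0.0575 to 0.173. With 1 array left out it ranged from 1.96 to 2.66 and was called only without null replicate 1.

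Arrays with the same number in the intensity table did not deviate together (correlations -0.05, -0.11, -0.20 and 0.04). Such values cannot exclude a pairing, for which no label was given. The log2 table numbers the null arrays otherwise, and pairing by those numbers was not examined. With the replicate block, 20 probes, 0 member probes and 0 other basement membrane genes were called, and the targeted gene differed by 2.22 (adjusted p = 0.0803). Lama4, Lama5 and the wildtype values of Nkx3-2 lie near background, where small differences could not be measured.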
